A study of Homo sapiens with 8 samples.

Results

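The 10 genes described here encode the core of classical non-homologous end joining: PRKDC, XRCC5, XRCC6, XRCC4, LIG4, NHEJ1, DCLRE1C, PAXX, POLL and POLM. They were taken from a list of symbols by their known role, drawn up when earlier results of these data were known, and each matched 1 of 58884 Ensembl identifiers in the deposited count table. All 10 had enough counts to be among the 14741 genes tested. Total RNA was sequenced from U87, an established human glioblastoma cell line, in 4 groups of 2 libraries. The first group received the solvent DMSO. The second was kept long-term on AsiDNA, a short double-stranded DNA that imitates a break and engages DNA-PK, at a dose and for a time that the labels do not give. The third received belinostat, an inhibitor of histone deacetylases, at 1 µM for 24 h, and the fourth, called the combination here, was kept on AsiDNA and given the same belinostat treatment. The labels name 2 kinds of U87 cells, MTU87 and LTAU87. They do not say whether the AsiDNA cells are 1 clone or a mixed population, nor whether replicates came from separate cultures. A p-value here is thus set against the spread between these libraries alone, which may be technical.

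End joining restores a broken DNA molecule without a template. The Ku ring, made of XRCC5 (Ku80) and XRCC6 (Ku70), slides onto the broken end and recruits the large kinase PRKDC, with which it forms DNA-PK. DCLRE1C (Artemis) opens and trims ends that cannot be joined, the polymerases POLL and POLM fill gaps, and LIG4, held by its partner XRCC4 and helped by NHEJ1 (XLF) and PAXX, seals the strands. The same machinery joins antigen receptor gene segments in lymphocytes, and in dividing cells such as glioblastoma it repairs most breaks made by radiation.

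The libraries held between 6057394 and 9699637 counts, where 3 counts equal 0.292 to 0.508 CPM, the counts of a gene per 1e6 counts of its library. The 2 DMSO libraries stood apart. Between them 11.1% of the 8142 genes at or above a mean log2 CPM of 4 differed by more than 1.5-fold, against 0.184% to 0.786% in the other groups. DMSO replicate 2 also had a larger share of its counts on sense-intronic genes, whose reads lie inside introns of other genes: 0.113%, against 0.057% in DMSO replicate 1, 0.128% and 0.142% with belinostat, and 0.044% to 0.0561% in the AsiDNA and combination libraries. No 2 replicates agreed within sampling noise. The astrocytic markers GFAP, S100B, AQP4 and ALDH1L1 were at or near 0, SLC1A2 was at 0.146 to 4.74 CPM, and SLC1A3 was at 47 to 60.8 CPM. Of 6 markers of mesenchymal glioma cells VIM, CD44, FN1 and TNC were at 1370 CPM or above in every library, whereas NES was at 4.95 to 7.37 CPM without belinostat and 26.3 to 56.6 CPM with it, and CHI3L1 at 0.604 to 1.66 and 6.15 to 21.6 CPM. The 6 lymphocyte markers summed to at most 0.768 CPM in any library, and of 4 endothelial markers CDH5 and CLDN5 were at 0, while PECAM1 alone carried nearly all of their sum, 3.74 to 6.11 CPM without belinostat and 13.5 to 23.6 CPM with it. In bulk RNA, fewer cells of a kind and less RNA per cell cannot be told apart.

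Divided by the length of their exons, the DNA-PK genes stood well above the rest. In DMSO the level was 97.2 ± 24 CPM per kilobase for XRCC5 (SD, n = 2), 84.8 ± 23 for XRCC6 and 71.8 ± 6.3 for PRKDC. The SDs of these 3 overlapped, and both DMSO libraries had them in this order. LIG4 followed at 11.7 ± 0.14 CPM per kilobase, PAXX at 10.6 ± 1.5 and XRCC4 at 8.52 ± 0.76. The SDs of PAXX overlapped those of LIG4 and of XRCC4, and both DMSO libraries had these 3 genes in this order. DCLRE1C was at 4.94 ± 0.71, POLL at 2.92 ± 0.46, POLM at 2.17 ± 1.1 and NHEJ1 at 0.681 ± 0.41 CPM per kilobase, with overlapping SDs of POLL and POLM and the same order in both libraries. Lengths were taken over all annotated exons of a gene, so a gene with many minor isoforms is placed somewhat low in this order. PRKDC, XRCC5 and XRCC6 together held between 86.9% and 93.9% of the counts of the 10 genes in each library. With belinostat the order at the top changed to PRKDC (49.2 ± 8.3 CPM per kilobase), XRCC6 (44.4 ± 3.0) and XRCC5 (43.2 in both libraries). There XRCC5 and XRCC6 changed places between the libraries.

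**Figure D1:**
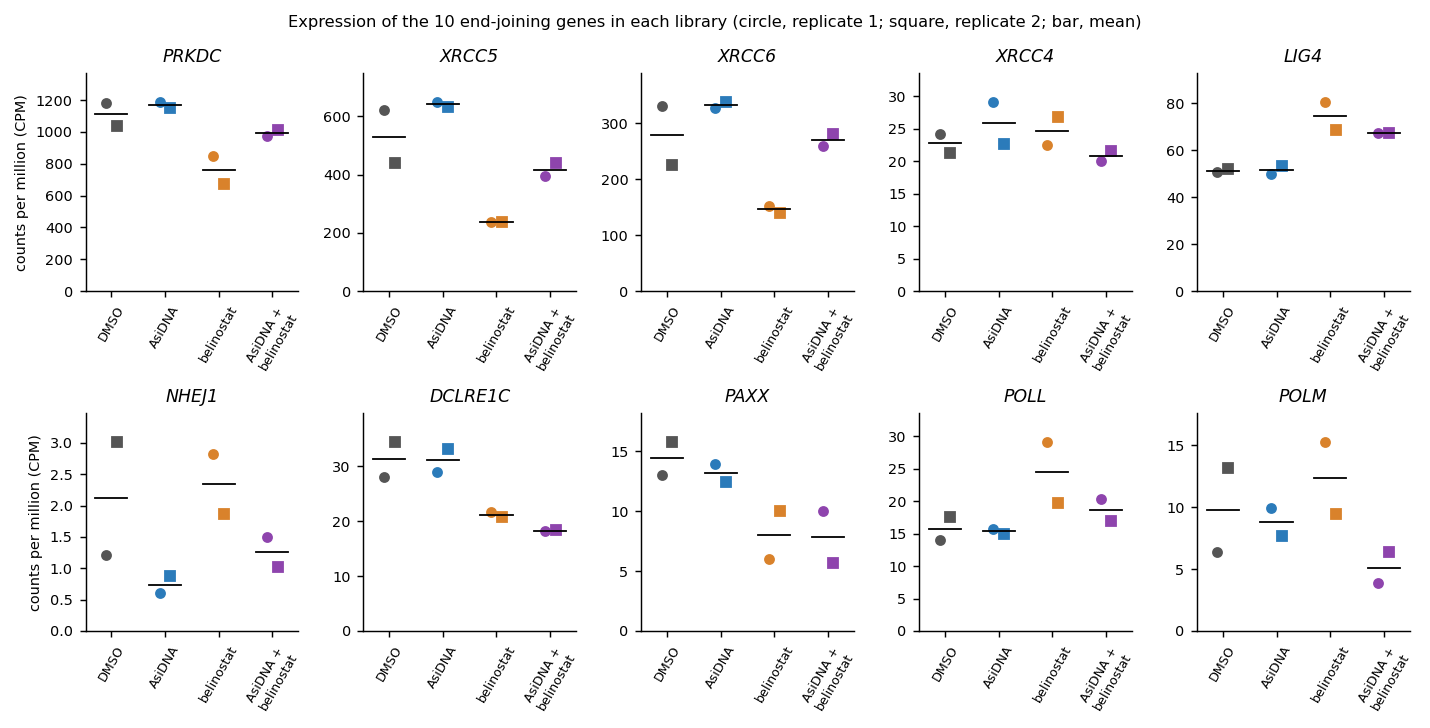
CPM (linear axis from 0) of each of the 10 end-joining genes in the 8 libraries, by group, with circles for replicate 1, squares for replicate 2 and bars for the mean of 2. XRCC5 fell to 236 CPM in both belinostat libraries and lay at 396 and 439 CPM in the combination, whereas LIG4 was highest with belinostat, at 80.7 and 68.8 CPM.

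The Ku subunits carried the largest differences of the DNA-PK genes. XRCC5 (ENSG00000079246, chromosome 2, 216107464 to 216206303, plus strand, GRCh38) gave 621 and 440 CPM in the 2 DMSO libraries, 651 and 632 CPM in AsiDNA, 236 and 236 CPM with belinostat, and 396 and 439 CPM in the combination. XRCC6 (ENSG00000196419, chromosome 22, 41621119 to 41664048, plus strand) gave 332 and 226 CPM in DMSO, 328 and 339 CPM in AsiDNA, 153 and 139 CPM with belinostat, and 259 and 281 CPM in the combination. For both genes the belinostat libraries were the lowest of the 8, the AsiDNA and DMSO replicate 1 libraries were the highest, and DMSO replicate 2 lay near the combination.

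PRKDC, the kinase that Ku recruits (ENSG00000253729, chromosome 8, 47773108 to 47960183, minus strand), gave 1180 and 1040 CPM in DMSO, 1190 and 1150 CPM in AsiDNA, 850 and 670 CPM with belinostat, and 976 and 1010 CPM in the combination. Its groups kept the order of the Ku genes over a narrower range. Both belinostat libraries were below every other library.

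With belinostat against DMSO, 7 of the 10 genes passed an adjusted p under 0.05 (edgeR's quasi-likelihood test, Benjamini-Hochberg over all tested genes), 2 higher and 5 lower. Over all tested genes 57.4% passed, so that share among the 10 genes is near the background. Scaling by library size only lowers every log2 fold change in this comparison by 0.14. With it 1 was higher and 5 were lower, beside 8388 genes called in all. XRCC5 fell by 1.17 ± 0.15 on the log2 scale (SE, adjusted p = 2.62e-05), which is 2.25-fold. XRCC6 fell by 0.93 ± 0.16 (adjusted p = 0.00025), and PRKDC by 0.54 ± 0.14 (adjusted p = 0.00464), from 1110 ± 97 to 760 ± 130 CPM. Without DMSO replicate 1 these values were -0.91, -0.64 and -0.46, and without DMSO replicate 2 they were -1.42, -1.21 and -0.65. All 3 genes kept an adjusted p under 0.05 in both cases. They also kept it, at -0.80, -0.50 and -0.38, with the sense-intronic share added to the model, an alternative chosen after seeing the data. Since each group has its own coefficient, the slope of this term comes from differences between replicates. The largest was between the DMSO libraries, at 0.057% and 0.113%. This alternative is thus not independent of leaving out a DMSO library. The summed level of 10 proliferation markers was 3610 and 4210 CPM in DMSO and 1090 and 1110 CPM with belinostat. Its part in these values was not tested.

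The ligase moved the other way. LIG4, which seals the break (ENSG00000174405, chromosome 13, 108207439 to 108218368, minus strand), gave 50.7 and 51.9 CPM in DMSO, 49.9 and 53.1 CPM in AsiDNA, 80.7 and 68.8 CPM with belinostat, and 67.4 CPM in both combination libraries. All 4 libraries with belinostat were above all 4 without it. With belinostat against DMSO LIG4 rose by 0.55 ± 0.13 (adjusted p = 0.00246), and without belinostat replicate 1 it was at 0.34 (adjusted p = 0.0959). Its partner XRCC4 (ENSG00000152422, chromosome 5, 83077498 to 83353787, plus strand) was between 20.0 and 29.2 CPM in the 8 libraries, with overlapping DMSO and belinostat groups, and was at 0.11 ± 0.17 (adjusted p = 0.604; 95% interval -0.26 to 0.48).

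Artemis and PAXX were lower in all belinostat-treated libraries. DCLRE1C, the end-trimming nuclease (ENSG00000152457, chromosome 10, 14897359 to 14954432, minus strand), gave 28.1 and 34.5 CPM in DMSO, 29 and 33.2 CPM in AsiDNA, 21.7 and 20.7 CPM with belinostat, and 18.2 and 18.4 CPM in the combination. PAXX, a scaffold that binds Ku (ENSG00000148362, chromosome 9, 136992418 to 136993984, plus strand), gave 13.0 and 15.8 CPM in DMSO, 13.9 and 12.4 CPM in AsiDNA, 5.98 and 9.99 CPM with belinostat, and 10.0 and 5.63 CPM in the combination. In neither gene did a library with belinostat reach one without it. With belinostat against DMSO, DCLRE1C fell by 0.56 ± 0.16 (adjusted p = 0.00864) and PAXX by 0.88 ± 0.28 (adjusted p = 0.0168). PAXX had only 44 to 162 counts in the 8 libraries. Without belinostat replicate 1 PAXX was at -0.61 (adjusted p = 0.164). DCLRE1C shares 159 of its 6326 exon bases with SUV39H2 on the other strand, which also fell (-0.79 ± 0.18, adjusted p = 0.00164). The strand setting of the counting is not given in the sources used here, so this small part of its reads is uncertain.

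The gap-filling polymerases were low and variable. POLL (ENSG00000166169, chromosome 10, 101578882 to 101588270, minus strand) gave 14.0 and 17.5 CPM in DMSO, 15.7 and 15.0 CPM in AsiDNA, 29.2 and 19.8 CPM with belinostat, and 20.4 and 17.0 CPM in the combination. POLM (ENSG00000122678, chromosome 7, 44072247 to 44082540, minus strand) gave 6.36 and 13.2 CPM in DMSO, 9.90 and 7.71 CPM in AsiDNA, 15.3 and 9.48 CPM with belinostat, and 3.84 and 6.40 CPM in the combination. The 2 DMSO libraries spanned a 2-fold range for POLM, and its belinostat group overlapped them. POLL rose by 0.65 ± 0.20 with belinostat (adjusted p = 0.0154). Without belinostat replicate 1 it was at 0.24 (adjusted p = 0.437), with library size only at 0.50 (adjusted p = 0.0637), and in a fit of only these groups at 0.55 (adjusted p = 0.0899). POLM was at 0.36 ± 0.33 (adjusted p = 0.376) and, without DMSO replicate 2, at 0.97 (adjusted p = 0.00166).

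NHEJ1, which bridges the 2 broken ends with XRCC4 (ENSG00000187736, chromosome 2, 219075317 to 219160865, minus strand), gave too few counts to be followed. It had 12 and 31 counts in DMSO, 5 and 6 in AsiDNA, 24 and 11 with belinostat, and 9 and 8 in the combination. The same-strand readthrough gene ENSG00000280537 shares 2034 of the 3109 NHEJ1 exon bases, and reads there may have been split between both or left out. That gene had 15 and 18 counts in DMSO and 64 and 43 with belinostat, a rise of 2.17 ± 0.39 (adjusted p = 0.000349). NHEJ1 itself was at 0.16 ± 0.50 (adjusted p = 0.796).

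**Figure D2:**
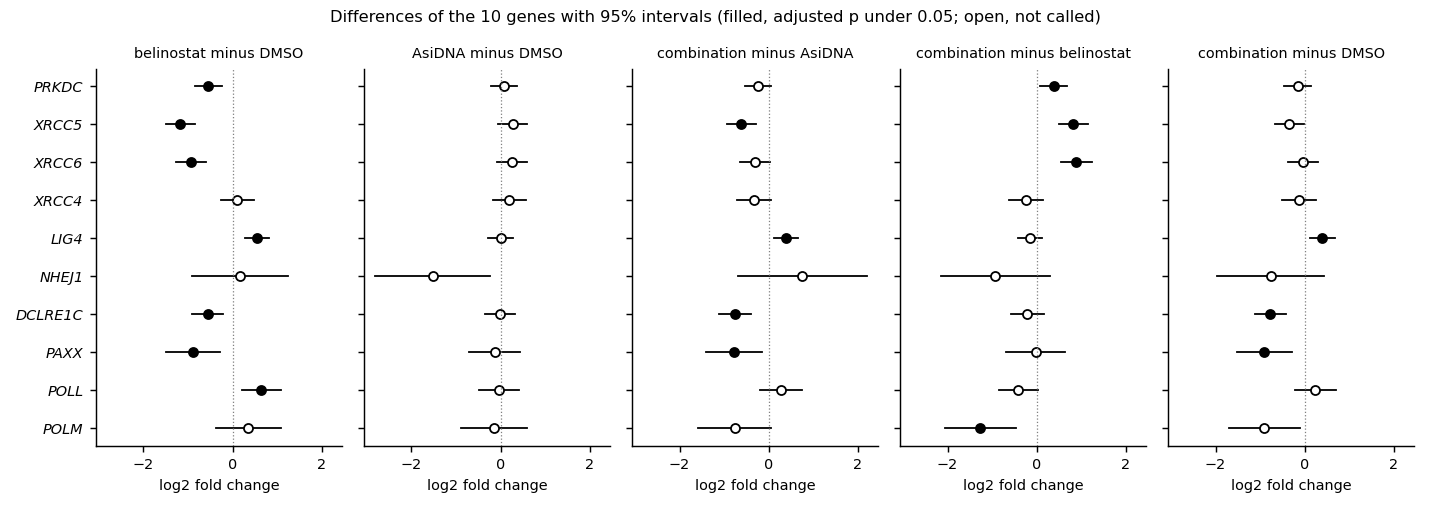
Log2 fold change (x axis) with its 95% interval for the 10 genes in 5 comparisons between groups, with filled points for an adjusted p under 0.05 and open points for genes not called. The DNA-PK genes lie left of 0 with belinostat against DMSO and right of 0 in the combination against belinostat, and no gene is called in AsiDNA against DMSO.

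Long-term AsiDNA against DMSO asks whether cells kept on a DNA-PK decoy carried another level of the machinery itself. By edgeR's quasi-likelihood test 0 of the 10 genes passed, against 0.0204% of all tested genes. By DESeq2 it was also 0, beside 33 genes called in all. At an unadjusted p under 0.05 by edgeR's test, which 11.4% of all tested genes had, it was 1, NHEJ1 (-1.52 ± 0.60, adjusted p = 0.391). The interval of the difference was -0.22 to 0.38 for PRKDC, -0.05 to 0.60 for XRCC5, -0.08 to 0.60 for XRCC6 and -0.27 to 0.28 for LIG4. The values for Ku depended on which DMSO library was used. Against DMSO replicate 2 alone, XRCC5 was higher by 0.56 (adjusted p = 3.73e-06) and XRCC6 by 0.58 (adjusted p = 3.64e-06), while NHEJ1 was at -2.01 (adjusted p = 0.00677), in a fit that called 4955 genes. Against DMSO replicate 1 alone XRCC5 was at 0.05 and XRCC6 at 0.01 (adjusted p = 1 for both), and 62 genes were called. In such fits the lone DMSO library is assumed to vary like the other groups.

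The combination against AsiDNA gives the effect of belinostat on top of long-term AsiDNA. Of the 10 genes 1 was higher and 3 were lower, which is 4 of 10, against 42.9% of all tested genes. With library size only, a shift of -0.14, it was 0 higher and 5 lower, beside 6529 genes called in all. XRCC5 fell by 0.62 ± 0.15 (adjusted p = 0.00461), DCLRE1C by 0.76 ± 0.16 (adjusted p = 0.00218) and PAXX by 0.77 ± 0.29 (adjusted p = 0.0464). LIG4 rose by 0.39 ± 0.13 (adjusted p = 0.0266). XRCC6 was at -0.30 ± 0.16 (adjusted p = 0.137) and PRKDC at -0.24 ± 0.14 (adjusted p = 0.191). For each, both combination libraries were below both AsiDNA libraries. The fit estimates the spread of a gene over all groups together, so the wide gap between the DMSO libraries enters this test too. Without DMSO replicate 1 or without DMSO replicate 2, XRCC6 was at -0.31 and PRKDC at -0.24.

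DCLRE1C kept its call without any single library, and the other 3 did not. XRCC5 was at -0.60 without AsiDNA replicate 1 (adjusted p = 0.0501) and at -0.55 without combination replicate 1 (adjusted p = 0.0515). LIG4 was at 0.34 to 0.43 (adjusted p = 0.102 to 0.203) when any 1 of the AsiDNA or combination libraries was left out, at 0.26 with library size only (adjusted p = 0.114) and at 0.38 by DESeq2 (adjusted p = 0.0621). PAXX was at -0.69, -0.85 and -0.42 (adjusted p = 0.198, 0.0985 and 0.376) without AsiDNA replicate 1, AsiDNA replicate 2 and combination replicate 2. When either DMSO library was left out, 7 of the 10 genes were called, PRKDC, XRCC6 and POLM with them. Over all genes the calls rose as well, from 6319 to 8247 without DMSO replicate 1 and 8243 without DMSO replicate 2.

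In the combination against belinostat alone the 3 DNA-PK genes were higher together. XRCC6 rose by 0.89 ± 0.16 (adjusted p = 0.00112), from 146 ± 9.9 to 270 ± 16 CPM, XRCC5 by 0.82 ± 0.15 (adjusted p = 0.00125), from 236 ± 0.093 to 417 ± 30 CPM, and PRKDC by 0.39 ± 0.14 (adjusted p = 0.0388). POLM fell by 1.26 ± 0.37 (adjusted p = 0.015), with 23 and 50 counts in the combination. These were the 4 calls among 10 genes, against 43.4% of all tested genes. LIG4 was at -0.15 ± 0.13 (adjusted p = 0.351), DCLRE1C at -0.21 ± 0.17 (adjusted p = 0.329) and PAXX at -0.03 ± 0.31 (adjusted p = 0.955).

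The call of PRKDC was lost without belinostat replicate 2 (0.28, adjusted p = 0.168), without either combination library (0.48 and 0.41, adjusted p = 0.0617 and 0.125) and without either AsiDNA library (0.41, adjusted p = 0.0707). POLM was at -0.81 without belinostat replicate 1 (adjusted p = 0.224) and at -0.89 without combination replicate 1 (adjusted p = 0.148). The sense-intronic share moved with this comparison, from 0.128% and 0.142% with belinostat to 0.0561% and 0.044% in the combination, without overlap. So did MALAT1 and NEAT1, nuclear noncoding RNAs, from 12.2% and 13.4% of counts to 3.12% and 2.06%. After the sense-intronic share was added to the model, XRCC5 was at 0.14, XRCC6 at 0.10 and PRKDC at 0.08 (adjusted p = 0.859, 0.91 and 0.938), and 85 genes were called in all. The slope for this share came from differences between replicates, of which the largest was in DMSO, a group outside this comparison. The treatment and this share cannot be told apart here.

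In the combination against DMSO 1 gene was higher and 2 were lower, against 48.1% of all tested genes. With library size only, a shift of -0.19, it was 0 higher and 5 lower, beside 7327 genes called in all. LIG4 rose by 0.39 ± 0.13 (adjusted p = 0.0213), and DCLRE1C fell by 0.77 ± 0.16 (adjusted p = 0.00154) and PAXX by 0.91 ± 0.28 (adjusted p = 0.018). LIG4 was at 0.20 with library size only (adjusted p = 0.186). It was at 0.37 and 0.35 without combination replicate 1 and 2 (adjusted p = 0.113 and 0.145), and PAXX was at -0.57 without combination replicate 2 (adjusted p = 0.202). XRCC5 was at -0.34 ± 0.15 (adjusted p = 0.0731), PRKDC at -0.16 ± 0.14 (adjusted p = 0.372) and XRCC6 at -0.05 ± 0.16 (adjusted p = 0.829). The Ku values again depended on the DMSO library. Without DMSO replicate 2 XRCC5 was at -0.58 (adjusted p = 1.98e-07) and XRCC6 at -0.30 (adjusted p = 0.00539), whereas without DMSO replicate 1 they were at -0.06 (adjusted p = 0.612) and 0.28 (adjusted p = 0.0124). Comparisons that share a group share its libraries, and their values are therefore not independent.

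Whether belinostat acted differently in AsiDNA cells was tested as the interaction, the difference between the belinostat effects in the 2 backgrounds. By edgeR's quasi-likelihood test it called 0 of the 10 genes, against 0.00678% of all tested genes. DESeq2 also called 0, beside 614 genes called in all. By edgeR's test 3 had an unadjusted p under 0.05, as did 21.7% of all tested genes. These were XRCC6 at 0.63 ± 0.22 (adjusted p = 0.139), XRCC5 at 0.55 ± 0.21 (adjusted p = 0.167) and POLM at -1.12 ± 0.51 (adjusted p = 0.219). PRKDC was at 0.31 ± 0.20 (adjusted p = 0.382). Without DMSO replicate 2, 4 genes were called, XRCC6 at 0.90 (adjusted p = 2.56e-08), XRCC5 at 0.80 (adjusted p = 1.96e-07), PRKDC at 0.41 (adjusted p = 0.00699) and POLM at -1.73 (adjusted p = 0.000168), with 5358 genes called in all. Without DMSO replicate 1 none was called and the Ku values were 0.33 and 0.29 (adjusted p = 0.103 and 0.152).

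**Figure D3:**
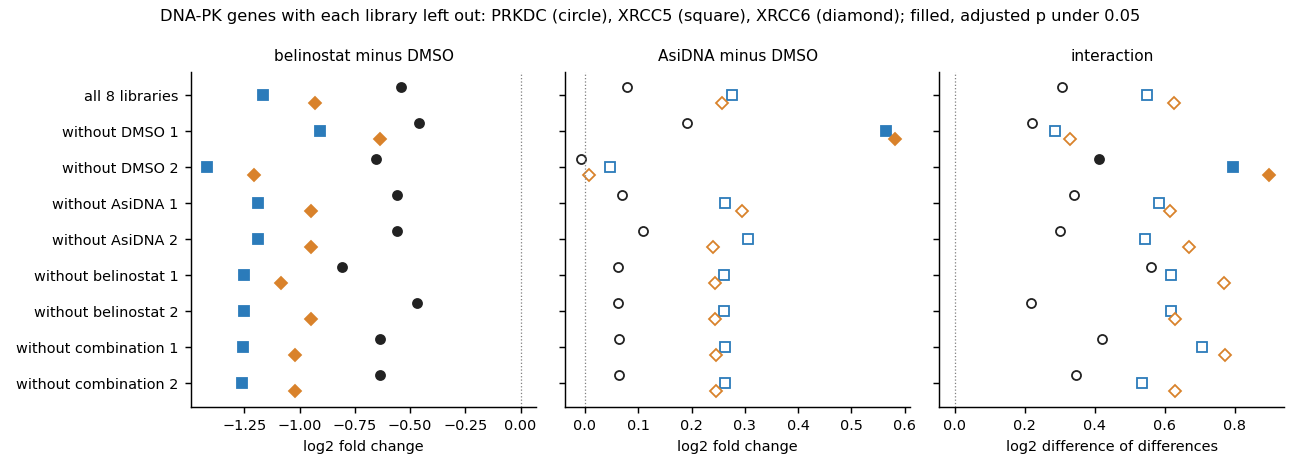
Log2 fold change (x axis) of PRKDC, XRCC5 and XRCC6 in 3 comparisons, with all 8 libraries and with each library left out in turn (rows), filled where the adjusted p was under 0.05. The belinostat difference stays left of 0 in every row, while the AsiDNA difference of XRCC5 moves between 0.05 and 0.56 and its interaction between 0.29 and 0.80 with the DMSO library used.

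The RNA levels of partners within each complex did not keep fixed proportions. Per length, XRCC5 was above XRCC6 in DMSO (ratios 1.13 and 1.17) and AsiDNA (1.20 and 1.12), and close to or below it with belinostat (0.928 and 1.02) and in the combination (0.921 and 0.939). The 4 libraries with belinostat did not overlap the 4 without it. The ratio of PRKDC to the mean of both Ku genes was 0.711 and 0.903 in DMSO, 0.703 and 0.683 in AsiDNA, 1.23 and 1.02 with belinostat, and 0.837 and 0.79 in the combination. Only the belinostat libraries exceeded 1, and the combination lay inside the DMSO range. LIG4 per XRCC4 was 1.28 and 1.48 in DMSO, 1.04 and 1.43 in AsiDNA, 2.19 and 1.56 with belinostat, and 2.05 and 1.90 in the combination, again higher in all libraries with belinostat. These ratios are descriptions without a test. Whether they lie above or below 1 depends on the exon lengths used, which are the same for every library, whereas shifts between libraries do not.

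**Figure D4:**
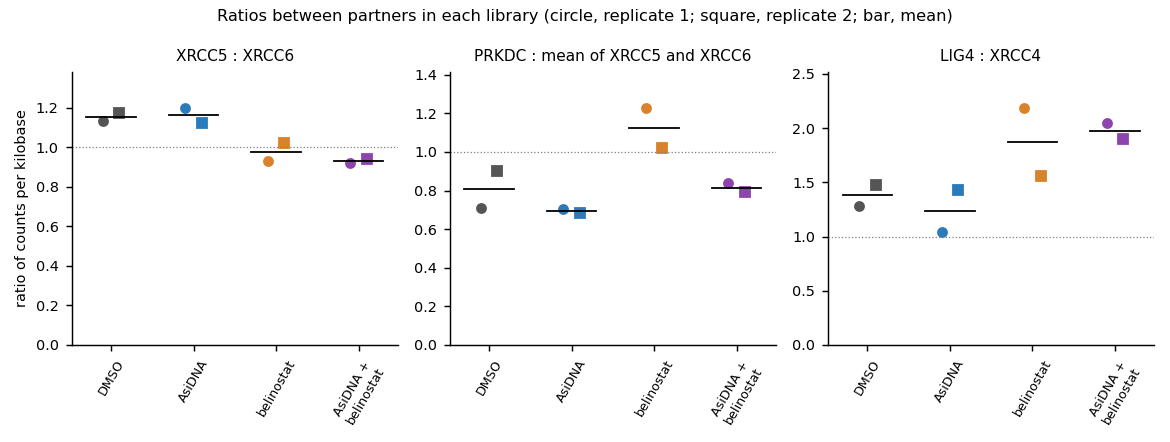
Ratios of counts per kilobase between partners in each library (linear axes from 0, dotted line at a ratio of 1), with circles for replicate 1, squares for replicate 2 and bars for the mean of 2. XRCC5 to XRCC6 is lower and LIG4 to XRCC4 is higher in the 4 belinostat-treated libraries than in the 4 others.

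As a description over the 8 libraries, which share treatment groups, log2 CPM of PRKDC correlated with XRCC5 and with XRCC6 at r = 0.94, and XRCC5 with XRCC6 at r = 0.97, whereas LIG4 was at r = -0.87 with XRCC5 and 0.87 with POLL. XRCC4 was at r = -0.06 with PRKDC and 0.11 with XRCC5. Among the same 8142 genes, those most like XRCC5 were SET, a histone chaperone (r = 0.9996), PDCD6IP, an adaptor of membrane scission (0.9986), and CMTM6 (0.9977). Those most like XRCC6 were LSM4 (r = 0.9985) and SNU13 (0.998), both splicing components, and MTDH (0.9982). Among those most like PRKDC were LPP (r = 0.9909) and the myosin MYO5A (0.9892).

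Of the 10 genes, 5 have a neighbour that starts head to head with them on the other strand within 1000 bases in GENCODE 29 or RefSeq. PRKDC and the replication helicase gene MCM4 start 2 bases apart in GENCODE 29, XRCC6 and DESI1 23 bases and LIG4 and ABHD13 11 bases. By RefSeq's starts XRCC6 and DESI1 are 252 bases apart, LIG4 and ABHD13 43, POLL and DPCD 51, and XRCC4 and TMEM167A 153. In GENCODE 29 POLL overlaps DPCD and XRCC4 overlaps TMEM167A. The RefSeq starts used did not include PRKDC. XRCC6 and DESI1 changed alike. DESI1, which encodes a deSUMOylating isopeptidase, gave 90.7 and 68.4 CPM in DMSO, 88.3 and 89.5 CPM in AsiDNA, 44.1 and 40.1 CPM with belinostat, and 74.6 and 86.0 CPM in the combination. It fell by 0.91 ± 0.15 with belinostat against DMSO (adjusted p = 0.000194) and rose by 0.93 ± 0.15 in the combination against belinostat (adjusted p = 0.000714). The XRCC6 count was 3.27 to 3.79 times that of DESI1 in the 8 libraries, DMSO replicate 2 included (3.30).

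With belinostat against DMSO, PRKDC and LIG4 moved apart from their neighbours. MCM4 fell by 1.51 ± 0.12 with belinostat (adjusted p = 4.57e-07), and PRKDC gave 3.18 and 3.43 times its counts in DMSO, 3.51 and 3.54 in AsiDNA, 5.27 and 7.87 with belinostat, and 5.78 and 5.91 in the combination. In the combination against AsiDNA MCM4 fell by 0.97 ± 0.12 (adjusted p = 3.09e-05), where PRKDC was not called. ABHD13 was at -0.37 ± 0.15 with belinostat against DMSO (adjusted p = 0.0538), opposite in sign to LIG4. LIG4 gave 1.11 to 1.47 times the ABHD13 counts in DMSO and AsiDNA against 2.26 and 2.32 with belinostat. In the combination the ratio was 1.61 and 1.42. There ABHD13 was at 0.20 ± 0.15 against AsiDNA (adjusted p = 0.314), with the sign of LIG4. With belinostat against DMSO TMEM167A was at 0.01 ± 0.14 (adjusted p = 0.954), beside 0.11 for XRCC4, and neither was called. In the combination TMEM167A was higher against DMSO (0.44 ± 0.14, adjusted p = 0.0165) and against belinostat (0.43 ± 0.14, adjusted p = 0.0221). XRCC4 was not called in these comparisons, at -0.13 and -0.24. Against AsiDNA they were at 0.25 and -0.32, and neither was called. With belinostat against DMSO DPCD was at 0.33 ± 0.15 (adjusted p = 0.0689), with the sign of POLL. In the combination DPCD was higher against AsiDNA (0.67 ± 0.15, adjusted p = 0.0026) and against DMSO (0.67 ± 0.15, adjusted p = 0.00195). POLL was not called in these comparisons, at 0.28 and 0.24. Against belinostat DPCD was at 0.34 and POLL at -0.41, and neither was called. DPCD shares 243 of the 5420 exon bases of POLL on the other strand, where reads are uncertain without the strand setting.

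**Figure D5:**
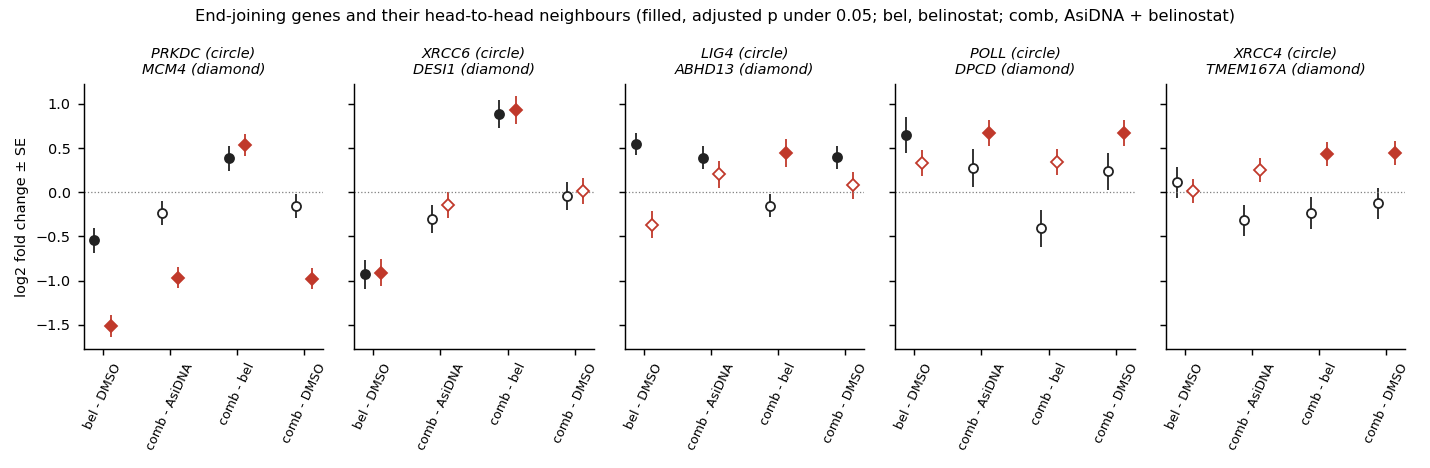
Log2 fold change ± SE (y axis) of 5 end-joining genes (circles) and their head-to-head neighbours (diamonds) in 4 comparisons, filled where the adjusted p was under 0.05. XRCC6 and DESI1 lie side by side in each comparison, at -0.93 and -0.91 with belinostat against DMSO, whereas LIG4 and ABHD13 are at 0.55 and -0.37.

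The stretches between or before starts were read from RefSeq's promoter table (GRCh38.p14), which held 8 of the 10 genes. They are shown for 3 of the pairs, XRCC6 with DESI1, LIG4 with ABHD13 and POLL with DPCD, and for PAXX. PAXX fell in both comparisons of belinostat with its matched control and has no head-to-head neighbour. The same holds for DCLRE1C, whose stretch is not shown. Between XRCC4 and TMEM167A exons cover the stretch. Only bases outside every exon annotated in GENCODE 29 are printed, 5′ to 3′ on the strand of the end-joining gene, with capitals for motifs on either strand.
XRCC6 to DESI1, plus strand, chr22:41621097-41621118: cgcatgtgcttacagtcctgac
LIG4 to ABHD13, minus strand, chr13:108218369-108218378: agaagccgct
POLL to DPCD, minus strand, chr10:101588271-101588287: agagggtcaCTTCCGGc
Before PAXX, plus strand, chr9:136992172-136992417: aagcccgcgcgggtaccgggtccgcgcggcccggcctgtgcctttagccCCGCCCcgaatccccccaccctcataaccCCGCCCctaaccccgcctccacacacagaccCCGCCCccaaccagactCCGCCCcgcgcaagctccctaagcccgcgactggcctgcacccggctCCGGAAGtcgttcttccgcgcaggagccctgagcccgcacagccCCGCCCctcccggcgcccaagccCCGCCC
The capitals mark the GC box (GGGCGG), found 6 times before PAXX, and the ETS core (CCGGAAG), found once each for PAXX and POLL. In windows of 300 bases around each start, 250 before and 50 after, the ETS core occurred in 6 of the 8 genes (LIG4, POLL, XRCC4, PAXX, POLM and DCLRE1C) and in 10 of their 15 windows, some of which overlap. It occurred in 10.3% of all 35116 promoters in the table. The GC box occurred in 7 of the 8 genes and 10 of the 15 windows, against 45% of all promoters. The CCAAT box (CCAAT) occurred in 6 genes and 8 windows, against 34.6%. The cyclic AMP response core (TGACGT) occurred in XRCC6 and LIG4, in 5 windows, against 7.98%. In LIG4 it was not in the window of the start that faces ABHD13. The NRF1 core (GCATGCG) occurred in the same genes, in 2 windows, against 3.91%, its 2 matches in XRCC6 overlapping each other. Of the E2F forms, TTTCCCGC was in none and TTTGGCGC in XRCC6, against 1.63% and 0.652% of all promoters, and the E box (CACGTG) was in none, against 7.26%. A gene with several starts was counted once if any window held the motif, whereas the shares of all promoters count single windows. A match is a description of letters and not a bound site.

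Beside the core, genes of the surrounding repair pathways were lower more often than higher with belinostat against DMSO. Over all tested genes 29.8% rose and 27.6% fell. The lists were chosen for this machinery and were not tested as sets. Of 11 alternative end-joining genes 9 fell and 0 rose (median -0.94), with the flap nuclease FEN1 at -1.61 ± 0.15 (adjusted p = 1.89e-06), NBN at -1.45 ± 0.15 (2.77e-06) and the resection factor RBBP8 at -1.24 ± 0.12 (2.89e-06). Of 13 genes of end resection and strand exchange 10 fell and 0 rose (median -0.86), with BRCA1 at -1.56 ± 0.12 (3.3e-07) and its partner BARD1 at -1.40 ± 0.13 (1.61e-06). The 10 core genes had a median of -0.22 and all tested genes one of 0.06.

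Of 8 tested genes of the 53BP1 and shieldin pathway, which shields ends from resection, 4 fell and 1 rose (median -0.50). SHLD2 fell by 2.17 ± 0.18 (adjusted p = 4.35e-07) and RIF1 by 0.69 ± 0.12 (0.000244), while TP53BP1 rose by 1.09 ± 0.11 (3.68e-06). Of 9 tested end-processing genes 3 fell and 0 rose (median -0.25): the phosphodiesterase TDP1 by 1.16 ± 0.13 (adjusted p = 8.53e-06), ERCC6L2 by 0.48 ± 0.12 (0.0037) and CYREN, an inhibitor of end joining, by 0.52 ± 0.13 (0.00497). DNTT, the lymphocyte polymerase of end joining, had 0 counts in all 8 libraries. Of 10 genes for kinases related to PRKDC and their chaperones 2 rose and 3 fell (median -0.25), near the shares of all tested genes, among them TELO2 (-0.91 ± 0.20, adjusted p = 0.00168), MTOR (-0.49 ± 0.12, 0.00367) and RUVBL2 (0.44 ± 0.14, 0.0174).

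In the combination against AsiDNA these 5 lists, 51 tested genes, gave 2 higher and 32 lower, beside 21.7% and 21.2% of all tested genes. Against DMSO they gave 2 higher and 33 lower, beside 24.3% and 23.7%. RBBP8 fell by 1.06 ± 0.12 against AsiDNA (adjusted p = 1.83e-05), BRCA1 by 1.20 ± 0.12 (5e-06), SHLD2 by 1.70 ± 0.17 (4.98e-06) and LIG1, the replicative ligase, by 2.13 ± 0.23 (7.67e-06). In the combination against belinostat 11 were higher and 12 lower, near the shares of all tested genes (22% and 21.4%). FEN1 rose by 1.24 ± 0.16 (adjusted p = 0.000271) and PARP1 by 0.69 ± 0.15 (0.00301), while the kinase SMG1 fell by 0.75 ± 0.13 (0.000862) and RAD52 by 1.36 ± 0.24 (0.00097). In AsiDNA against DMSO 0 of the 51 genes were called by edgeR's quasi-likelihood test, and 5 had an unadjusted p under 0.05, as did 11.4% of all tested genes. The lowest adjusted p was 0.339.

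Markers of dividing cells fell with belinostat in both backgrounds. The summed level of the 10 proliferation markers, given above for DMSO and belinostat, was 3800 and 3830 CPM in AsiDNA and 1480 and 1550 CPM in the combination. All 10 fell with belinostat against DMSO, among them CCNB1 (-2.55 ± 0.16, adjusted p = 5.92e-08), MKI67 (-2.10 ± 0.13, 6.8e-08) and RRM2 (-2.49 ± 0.16, 7.53e-08). In the combination 9 of the 10 were lower against AsiDNA (median -1.14) and 9 against DMSO (median -1.10). In these comparisons PRKDC was at -0.24 and -0.16 and XRCC6 at -0.30 and -0.05, without a call in the main fit. XRCC5 was called lower against AsiDNA only (-0.62 ± 0.15, adjusted p = 0.00461). Against AsiDNA the calls of PRKDC and XRCC6 depended on the DMSO libraries in the fit, as given above. Against belinostat alone 7 of the 10 markers rose in the combination, among them MCM2 (1.08 ± 0.13, adjusted p = 0.000271), PCNA (0.86 ± 0.14, 0.000727) and MCM6 (0.75 ± 0.13, 0.000997). The part of these markers in the values of PRKDC and Ku was not tested in these comparisons either.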

How the data were processed

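RNA was extracted with a Roche kit and made into Illumina TruSeq stranded libraries after ribosomal RNA depletion, per the labels' protocols. The tools named are cutadapt 1.16, STAR 2.7.0 and featureCounts 1.6.3, with build GRCh38, per the submitters' processing notes. What was deposited is a table of whole read counts, with genes as rows and 1 column per library. The sources used here do not give the annotation release or the strand setting.

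Counts were fitted in R 4.3.3 with edgeR 4.0.16 (filterByExpr, TMM factors, 1 coefficient per group, all 8 libraries, 4 residual degrees of freedom) and tested by quasi-likelihood with Benjamini-Hochberg adjustment over 14741 genes. The standard error is the absolute log2 fold change over the square root of F. CPM use TMM-scaled totals, and log2 CPM a prior count of 2. Positions and exon lengths come from GENCODE 29, which held 58611 of 58884 identifiers.

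Beside the 10 genes, the text names head-to-head neighbours, the 3 genes most correlated with each DNA-PK gene, and up to 3 genes with the smallest adjusted p of each list in a comparison, of which 2 are not reported here. MALAT1, NEAT1, DNTT, the genes that overlap members and the marker genes of cell types were named outside that rule, some after their values were seen. The 10 genes, the lists and the tests were chosen with earlier results of these data known. Alternatives were RLE factors (DESeq2's size factors), library size only, DESeq2 1.42.0, other filters and thresholds, only the groups compared, a replicate block, and each library left out. A sense-intronic term and a fit limited to protein-coding genes were added after seeing the data. Only the edgeR fit, for belinostat against DMSO, was tested on simulated counts with known changes. These had the same spread in every group, unlike the DMSO libraries here.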

Additional observations from a re-analysis of the deposited data

How the results depend on the processing

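The counts of called end-joining genes depended on the settings and on the libraries included, as did the counts over all genes. Leaving out 1 library at a time gave 4 to 8 calls with belinostat against DMSO, 0 to 3 in AsiDNA against DMSO, 1 to 7 in the combination against AsiDNA, 2 to 5 against belinostat and 1 to 6 against DMSO, and 0 to 4 in the interaction. A 1.5-fold limit left 4 calls with belinostat against DMSO, and 6929 instead of 8466 over all genes. At an adjusted p under 0.01 the combination had 2 calls against AsiDNA, 2 against belinostat and 1 against DMSO. Over all genes these comparisons gave 4372, 3804 and 5003 calls, instead of 6319, 6398 and 7084. DESeq2 gave 2 calls in the combination against AsiDNA, and the fit of only those groups gave 7, beside 5440 and 8267 genes in all. Library size only gave 5 in the combination against DMSO, beside 7327 genes in all. No filter on low counts gave 2 in the interaction, beside 1549 genes in all. These were XRCC5 (0.65, adjusted p = 0.0145) and XRCC6 (0.73, adjusted p = 0.00653). With the sense-intronic term the combination had 8 calls against AsiDNA, 0 against belinostat and 5 against DMSO. Over all genes these comparisons then gave 8289, 85 and 7098 calls. With protein-coding genes only the combination had 5 calls against DMSO, beside 6611 genes in all. Among values called in the main fit or the alternative, only XRCC6 in the combination against DMSO changed sign. It was at 0.28 without DMSO replicate 1, against -0.05 with all libraries and -0.30 without DMSO replicate 2. Values called in neither fit changed sign as well, such as POLM in AsiDNA against DMSO, from -0.14 to 0.48 without DMSO replicate 2. The cause of these shifts was not tested. Replicate numbers did not pair the libraries (deviations of same-numbered libraries correlated at -0.37 to 0.23). With the replicate block 7 genes were called with belinostat against DMSO and 0 in AsiDNA against DMSO, beside 8376 and 5 in all. The combination had 3 calls against AsiDNA, 4 against belinostat and 3 against DMSO, beside 6227, 6351 and 6966 in all. The interaction had 0, beside 19 in all. PAXX was lost in the combination against AsiDNA (-0.77, adjusted p = 0.0504). With 2 libraries a group, and under 170 counts of PAXX and under 140 of POLM a library, small differences were not detectable.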
